A study of Mus musculus with 2 samples.

Results

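Vascular tone, the degree to which a vessel is constricted, is set by signals that pass between endothelial cells (ECs) and the contractile cells around them. The 10 genes described here were chosen by name for their part in those signals, out of 32285 genes in the count matrices, with no measured value in the choice. They are Edn1, Ece1 and Ednra of the endothelin system, Ace and Agtr1a of the renin-angiotensin system, Bdkrb2 and Calcrl as receptors of dilating peptides, and Nos3, Gucy1a1 and Gucy1b1 of the nitric oxide pathway. Their level was read from UMIs (counted RNA molecules), summed over the cells of a class and scaled to CPM, the usual scaling of counts to a common library total, in 2 single-cell libraries.

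One library came from control mice and the other from Dnmt1iECKO mice, which lose Dnmt1, the enzyme that copies DNA methylation at CG sites when DNA is replicated, from ECs after tamoxifen. The labels give the genotypes as C57BL/6 for the control and Cdh5CreERT2;Dnmt1fl/fl;ZsGreenlsl/lsl for the knockout, while the study's methods describe controls that also carry the Cre driver and the ZsGreen reporter. All mice were female, 8 to 10 weeks old, and bore YUMMER1.7, an immunogenic mouse melanoma line. CD31+ CD45- cells were sorted from the tumors of 3 mice pooled per genotype. The Cdh5 promoter is active in the endothelium of the whole body, so deletion was not limited to tumor vessels. The labels describe subcutaneous tumors and the text of the study lung tumors for this experiment, and the labels name the cell type melanoma cells. The capillary classes below carry markers of lung capillaries.

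Endothelin-1 is released by ECs as a precursor, cut to its active form by the converting enzyme Ece1, and constricts vessels through the receptor Ednra on mural cells (pericytes and smooth muscle). Angiotensin-converting enzyme, which the lung endothelium carries in abundance, makes angiotensin II, the ligand of Agtr1a, and also degrades bradykinin, the ligand of Bdkrb2. Nitric oxide from the endothelial synthase Nos3 diffuses to mural cells, where it activates the guanylate cyclase formed by Gucy1a1 and Gucy1b1, and the cyclic GMP made there relaxes the cell.

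The control library held 9301 cells and 123830489 UMIs and the Dnmt1iECKO library 9522 cells and 141433493 UMIs. After filtering, 7764 and 7839 cells were left, and the libraries shared 29 cell barcodes. ECs, with a UMI of Cdh5 or Pecam1 and none of Ptprc, numbered 5251 in the control and 2214 in the Dnmt1iECKO library. Cells with a UMI of Ptprc that were not called T cells numbered 1183 and 3825. The T cell call needed several T cell markers and no endothelial marker, so T cells that missed it can be among these. Classes of ECs were taken by the stronger of 4 marker pairs: aerocyte-like (Ednrb, Car4), general capillary-like (Kit, Bmp6), venous-like (Slc6a2, Selp) and arterial-like (Gja5, Bmx). The first held 1582 control and 505 Dnmt1iECKO cells, the second 2468 and 945, the third 234 and 243, and the fourth 235 and 171. A further 732 and 350 ECs fell in no class. Markers not used for the choice were at least 2-fold higher than in the other ECs in both libraries for 5 of 5 aerocyte, 4 of 5 general capillary, 5 of 5 venous and 5 of 6 arterial genes. The arterial-like class lies nearest its cut, with 97 of 235 and 61 of 171 cells at the minimum of exactly 2 UMIs of the pair, and 253 and 127 cells falling 1 UMI short. Pericyte-like cells were few (48 and 18), as were smooth muscle-like cells (33 and 45), beside 280 and 365 fibroblast-like cells. Dnmt1 itself stood at 49.2 CPM in control and 25.8 in Dnmt1iECKO ECs, and at 82.0 and 86.6 in T cells. Which part of the transcript Cre removes is not given in the sources used here, and reads from outside it would not show the deletion.

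With 1 library per genotype there was no replicate of either, so no test was made. All intervals are 95% intervals of counting error only, exact Poisson for a level and exact conditional for a ratio. Those of levels and ratios leave out the spread between cells, and none holds the spread between mice or between libraries. Values are for the control and then the Dnmt1iECKO library unless stated. Levels are compared between classes for the same gene and not between genes.

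Because Dnmt1 acts at CG sites, the sequence before the transcription start of the genes is shown for Edn1, whose ratio between the libraries differed between classes, for Ece1, whose first start had more CG before it than that of any other matched gene, and for Gucy1b1, which had few. RefSeq promoters on GRCm38.p6 matched 8 of the 10 genes, all but Nos3 and Agtr1a. The sequences are the 250 bases upstream of the first listed start, 5′ to 3′ on the gene's strand, with each CG in capitals. Edn1 lies at chr13:42301226-42301475 on the + strand, Ece1 at chr4:137861987-137862236 on the + strand and Gucy1b1 at chr3:82074712-82074961 on the - strand.
Edn1: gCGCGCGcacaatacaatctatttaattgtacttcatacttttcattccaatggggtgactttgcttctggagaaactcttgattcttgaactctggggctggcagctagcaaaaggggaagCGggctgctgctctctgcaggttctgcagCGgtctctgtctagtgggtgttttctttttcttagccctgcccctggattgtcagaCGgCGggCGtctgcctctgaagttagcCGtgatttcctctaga
Ece1: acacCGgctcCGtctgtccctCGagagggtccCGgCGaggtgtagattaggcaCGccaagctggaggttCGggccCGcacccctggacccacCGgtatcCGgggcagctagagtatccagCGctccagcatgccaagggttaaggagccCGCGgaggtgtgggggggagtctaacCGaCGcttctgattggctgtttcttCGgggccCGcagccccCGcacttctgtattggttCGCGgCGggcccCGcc
Gucy1b1: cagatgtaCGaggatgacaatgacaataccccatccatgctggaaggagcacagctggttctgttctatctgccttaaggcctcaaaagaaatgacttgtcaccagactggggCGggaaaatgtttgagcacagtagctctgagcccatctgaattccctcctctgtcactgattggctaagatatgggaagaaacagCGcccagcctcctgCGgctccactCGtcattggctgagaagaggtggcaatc
They hold 9, 22 and 5 CG. At least as many were found in 40.3%, 14.8% and 55.6% of the 32851 promoters in the table, whose median was 6. The same stretch held 3 CG at Calcrl, 6 at Ednra, 7 at Bdkrb2, 12 at the first start of Gucy1a1 and 19 at the first start of Ace. Methylation was not measured, and these counts describe sequence only.

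The 10 genes fell into 2 groups by where they were read. Nos3, Edn1, Ece1, Ace, Bdkrb2 and Calcrl were lower in pericyte-like cells than in ECs by at least 1.5-fold in both libraries. Ednra, Agtr1a, Gucy1a1 and Gucy1b1 were higher there by that fold in both. Of 13108 genes compared this way, 14.3% were higher in pericyte-like cells and 16.7% lower. Within the first group, Edn1 and Ace were highest in arterial-like, Nos3 in venous-like and Bdkrb2 in aerocyte-like cells in both libraries, while the highest class of Ece1 and of Calcrl differed between the libraries, as the plot of levels by class shows.

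**Figure D1:**
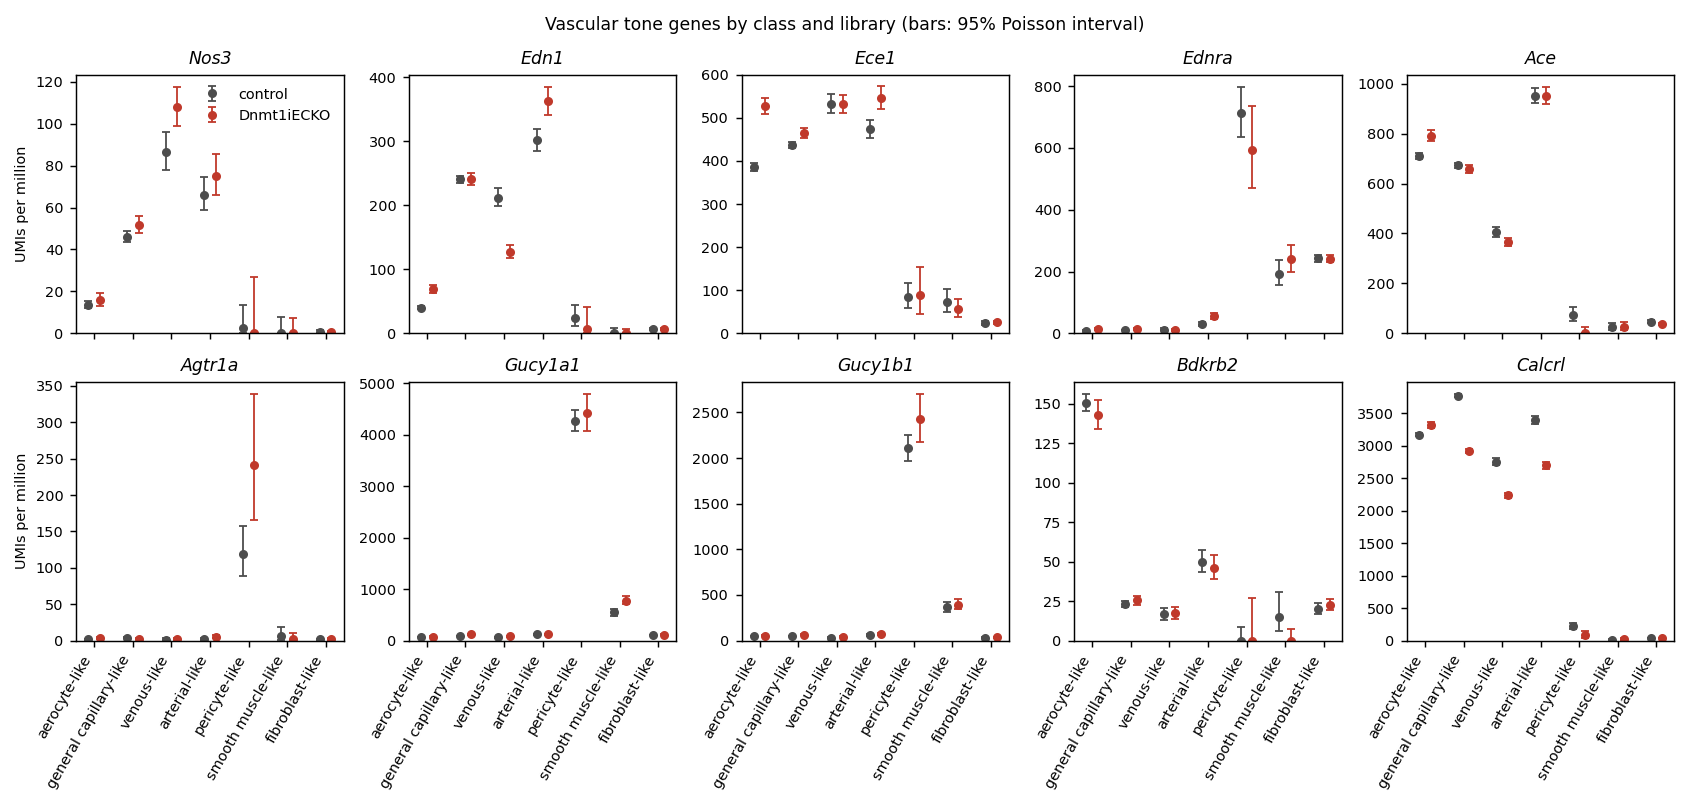
Level of each gene in CPM (vertical axis, linear, from 0) in 7 cell classes of the control (grey) and Dnmt1iECKO (red) library, with 95% Poisson intervals as bars. Ednra, Agtr1a, Gucy1a1 and Gucy1b1 peak in pericyte-like cells, for example Gucy1a1 at 4267 and 4422, while Bdkrb2 peaks in aerocyte-like cells at 150 and 143 and Nos3 in venous-like cells at 86.6 and 108.

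Edn1, the endothelin-1 precursor, was highest in arterial-like cells, at 302 (286 to 319) and 363 (342 to 385) CPM. General capillary-like cells followed at 240 and 241, and aerocyte-like cells were the lowest of the 4 endothelial classes at 40.1 (37.4 to 43.0) and 68.6 (62.4 to 75.3). Smooth muscle-like cells held no Edn1 UMI, which allows up to 6.43 CPM in the control and 5.74 in the Dnmt1iECKO library. In all ECs combined, the libraries differed little, at 181 and 189 (log2 ratio of Dnmt1iECKO over control 0.06, 0.02 to 0.11). Within classes they parted. Venous-like cells had 212 (199 to 226) and 127 (117 to 138) CPM, a log2 ratio of -0.74 (-0.89 to -0.59), and the intervals did not overlap. Aerocyte-like cells went the other way, with a log2 ratio of 0.77 (0.60 to 0.94), again without overlap. Arterial-like cells were higher in the Dnmt1iECKO library by 0.27 (0.15 to 0.38), general capillary-like cells stood at 0.00 (-0.06 to 0.07), and ECs in no class were lower by 0.66 (log2 ratio -0.66, -0.82 to -0.50).

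After every cell was thinned to 2000 UMIs, an Edn1 UMI was found in 26.3% (20.7 to 32.5) of control and 16.7% (12.2 to 22.0) of Dnmt1iECKO venous-like cells, against 51.3% and 46.5% before thinning. In aerocyte-like cells the thinned shares were 5.89% (4.75 to 7.20) and 6.54% (4.49 to 9.15), which overlap, against 16.4% and 19.0% before thinning. T cells, which should lack the gene, held it in 0.625% and 0.294% of cells, at a median of 7936.5 and 8012.5 UMIs per cell against 9913 and 10092.5 in ECs. Thinned T cells had none, in 157 and 670 cells.

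Other markers moved with both of these Edn1 differences. Venous-like cells of the Dnmt1iECKO library held more UMIs of the 7 venous genes (summed 4931 and 6182 CPM), fewer of the 7 general capillary genes (2226 and 2000) and more of the 6 lung epithelial markers (133 and 1809). Without cells that held a UMI of Ackr1, a gene of postcapillary venules, 217 and 194 venous-like cells remained and the log2 ratio was -0.53 (-0.68 to -0.37). In aerocyte-like cells the 7 general capillary genes summed to 1369 and 1623 CPM. Of the 796 and 445 Edn1 UMIs of aerocyte-like cells, only 52 and 12 lay in the 809 and 253 cells with no UMI of Kit or Bmp6. In those cells Edn1 stood at 7.34 and 5.55 CPM and the log2 ratio was -0.40 (-1.44 to 0.52), which includes 0. The part of these markers in the Edn1 differences was not tested. Removal of cells with 2 or more UMIs of Sftpc, an alveolar epithelial gene, left -0.78 in venous-like and 0.85 in aerocyte-like cells.

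Ece1, the endothelin-converting enzyme, was found across the endothelium. The control library ran from 386 (377 to 395) CPM in aerocyte-like, over 437 in general capillary-like and 474 in arterial-like, to 533 (511 to 555) in venous-like cells, each apart from its neighbours. In the Dnmt1iECKO library arterial-like (546), venous-like (533) and aerocyte-like cells (527) overlapped, and general capillary-like cells were below them at 465. The log2 ratio was highest in the aerocyte-like class, at 0.45 (0.39 to 0.51). There, unlike for Edn1, cells without Kit or Bmp6 gave nearly the same ratio, 0.43 (0.32 to 0.53). Arterial-like cells differed by 0.20 (0.11 to 0.30), general capillary-like by 0.09 (0.04 to 0.13) and venous-like by 0.00 (-0.08 to 0.08). Thinned shares of aerocyte-like cells with an Ece1 UMI were 48.0% (45.4 to 50.5) and 59.9% (55.3 to 64.4), against 86.9% and 88.9% unthinned. T cells, at 12.1% and 8.36%, also hold some Ece1 and are no empty background for it. Stromal classes stood at 23.8 to 87.7 CPM.

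Ednra, the receptor that constricts mural cells in response to endothelin-1, was highest in pericyte-like cells at 713 (634 to 798) and 592 (470 to 736) CPM. Fibroblast-like cells, at 242 in both libraries, and smooth muscle-like cells, at 193 and 239, overlapped each other and lay apart from the pericyte-like cells. None of the 3 stromal classes, with all their cells, differed between libraries beyond counting error. In the 32 and 15 pericyte-like cells with no UMI of Cdh5 or Pecam1, the log2 ratio was -0.42 (-0.83 to -0.02), from 219 and 70 UMIs. With mural cells split by Myh11, the pericyte-like ratio went the other way, at 1.95. In ECs the gene was at 13.04 and 19.8 CPM, a log2 ratio of 0.60 (0.45 to 0.76), the highest of the 10. The arterial-like class had the largest endothelial level, at 29.4 (24.4 to 35.1) and 55.0 (47.0 to 64.1), a log2 ratio of 0.91 (0.56 to 1.26). The 6 fibroblast markers moved with it in that class, at 414 and 761 CPM in sum, among them Dcn, a fibroblast proteoglycan, at 1.21 and 140. In the 206 and 143 arterial-like cells with no UMI of Col1a1, Dcn or Pdgfra, only 10 and 4 of the 121 and 166 Ednra UMIs were left, and the log2 ratio was -0.71 (-2.84 to 1.08). The 6 epithelial markers went the other way in the arterial-like class, at 2532 and 154 CPM in sum. Without cells with 2 or more UMIs of Sftpc, 52 and 150 Ednra UMIs were left, and the log2 ratio was 1.80 (1.34 to 2.29). The part of these markers in the Ednra difference was not tested. The B receptor Ednrb, which served to choose aerocyte-like cells, was read at 508.6 and 343.6 CPM in all ECs.

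Ace, the angiotensin-converting enzyme, had the log2 ratio nearest 0 of the 10 genes over all ECs. Arterial-like cells were highest, at 951 (921 to 981) and 952, aerocyte-like cells followed at 712 and 791, then general capillary-like cells at 673 and 658, and venous-like cells were lowest among ECs at 406 (387 to 426) and 366 (349 to 384). In fibroblast-like cells 46.1 and 38.1 CPM were read. Over all ECs that ratio was -0.04 (-0.06 to -0.01). Aerocyte-like cells differed by 0.15 (0.11 to 0.20) and venous-like cells by -0.15 (-0.25 to -0.05). The control pericyte-like cells held 31 Ace UMIs, or 73.9 CPM, and the Dnmt1iECKO ones none. The control pericyte-like cells also held more of the endothelial gene Cdh5, at 164 CPM against 14.6, and in the 32 control cells free of Cdh5 and Pecam1 only 2 Ace UMIs were left.

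Agtr1a, the angiotensin II receptor that constricts vessels, had the widest gap of the 10 genes between its highest class, the pericyte-like cells, and the next, at 43.2-fold on the mean of both libraries. There it stood at 119 (88.5 to 157) and 241 (166 to 339) CPM, from 50 and 33 UMIs. Every other class was at or below 6.43. The next class, smooth muscle-like cells, rested on 3 and 1 UMIs. Between libraries the pericyte-like log2 ratio was 1.02 (0.34 to 1.68), from 48 and 18 cells, and the intervals did not overlap. These UMIs are under the minimum of 100 set for ratios, and the ratio was recomputed under 1 other setting only. In the 32 and 15 pericyte-like cells with no UMI of Cdh5 or Pecam1 the values were 113 and 229, a log2 ratio of 1.01 (0.18 to 1.84). Agtr1a was detected in 25.0% (13.2 to 40.3) and 33.3% (13.3 to 59.0) of the thinned cells, which overlap, against 52.1% and 66.7% before thinning and none of the 160 and 680 T cells. ECs held 172 and 83 Agtr1a UMIs, or 2.74 and 2.91 CPM.

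Bdkrb2, the B2 receptor through which bradykinin makes ECs release dilators, was a gene of the aerocyte-like class, at 150 (145 to 156) and 143 (134 to 152) CPM. Arterial-like cells were next at 50.0 and 46.1, 3.05-fold lower on the mean of both libraries. General capillary-like cells held 23.2 and 25.4, venous-like cells 16.5 and 17.4 and fibroblast-like cells 20.1 and 22.4. No UMI was found in the pericyte-like cells of either library, which at a limit of 3 UMIs allows 7.15 and 21.9 CPM. Within each of the 4 endothelial classes the libraries lay within counting error of each other when all cells of the class were counted. Over all ECs, however, the log2 ratio was -0.28 (-0.36 to -0.19), while aerocyte-like cells gave 31.6% of the endothelial UMIs of the control and 22.7% of those of the Dnmt1iECKO library. With every class given the share it has in the control, the ratio was -0.03. In narrower sets of cells some class ratios had intervals that left out 0. Without cells with 2 or more UMIs of Sftpc, arterial-like cells were at -0.59 (-0.96 to -0.22) and aerocyte-like cells at -0.11 (-0.22 to -0.004). General capillary-like cells were then at 0.22 (0.008 to 0.42). Arterial-like cells with no UMI of Col1a1, Dcn or Pdgfra gave -0.45 (-0.90 to -0.02). Aerocyte-like cells carried 72.0% and 59.7% of the endothelial Bdkrb2 UMIs. One in 5 thinned aerocyte-like cells had a UMI, 19.6% in both libraries, against 47.4% and 45.0% unthinned and none of the thinned T cells.

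Calcrl is the shared chain of the receptors for adrenomedullin and the calcitonin gene-related peptide, both dilators, and takes its ligand specificity from a Ramp partner. It was read in 97.4% and 96.0% of ECs, and in 21.3% and 25.1% of T cells. In the control library general capillary-like cells were highest at 3772 (3750 to 3794) CPM, then arterial-like at 3396, aerocyte-like at 3169 and venous-like at 2754. In the Dnmt1iECKO library aerocyte-like cells led at 3321, over 2915 in general capillary-like, 2695 in arterial-like and 2236 in venous-like cells. All neighbours were apart in both orders. The log2 ratio was -0.37 (-0.39 to -0.35) in general capillary-like, -0.33 (-0.37 to -0.29) in arterial-like and -0.30 (-0.34 to -0.26) in venous-like cells, and 0.07 (0.05 to 0.09) in aerocyte-like cells. With 213477 and 79774 endothelial UMIs, counting error was the smallest of the set. The ratio in general capillary-like cells stayed between -0.40 and -0.20 under 17 other ways of choosing and counting the cells. Ramp2, the partner that makes Calcrl an adrenomedullin receptor, was at 1723 and 1505 CPM in ECs (log2 ratio -0.19, -0.21 to -0.18) and was lower in general capillary-like (-0.13) and venous-like cells (-0.22), with -0.01 (-0.07 to 0.05) in arterial-like cells. Ramp1, the partner for the calcitonin gene-related peptide, was at 1.81 and 1.65 in ECs but 193 and 212 in smooth muscle-like cells. Ramp3 was at 16.7 and 17.4 in ECs, and the ligand gene Adm at 6.03 and 5.64.

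**Figure D2:**
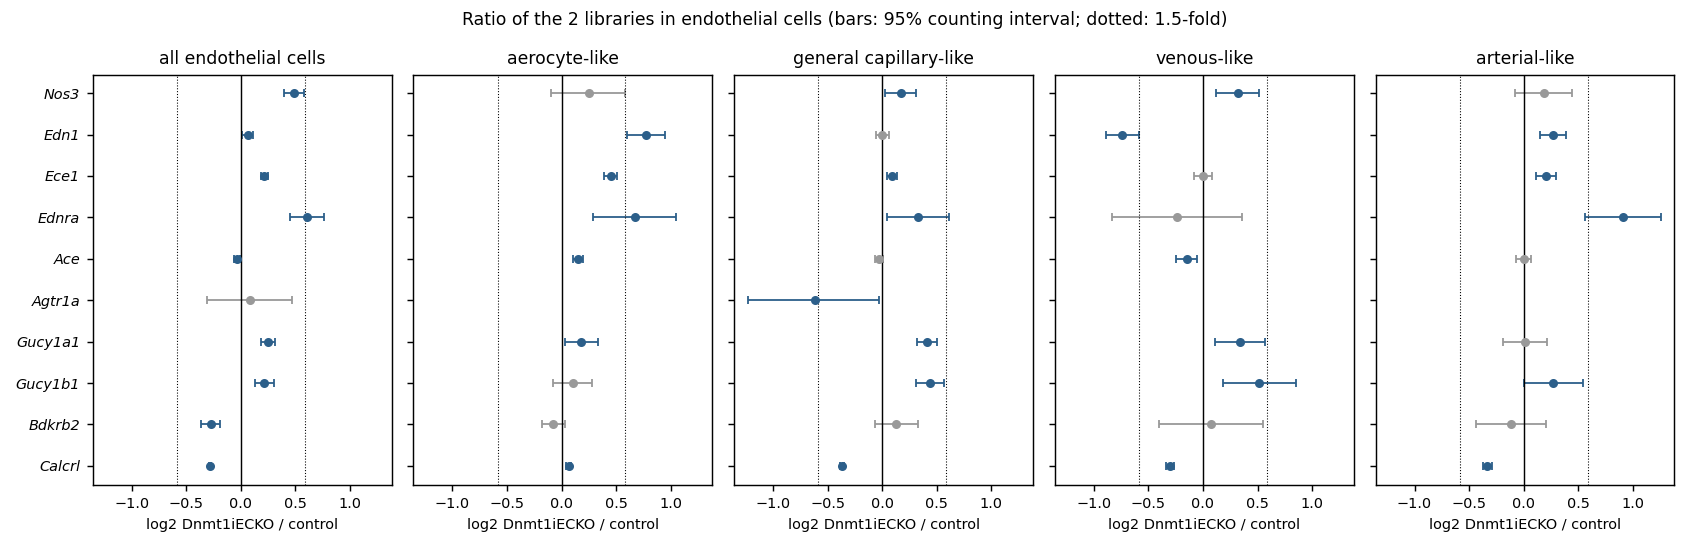
Log2 ratio of the Dnmt1iECKO over the control library (horizontal axis) for each gene in all ECs and in the 4 endothelial classes, with 95% counting intervals and dotted lines at 1.5-fold. Blue points have an interval that leaves out 0, grey ones do not, and genes with under 100 UMIs in a class are not drawn. Edn1 lies at 0.77 in aerocyte-like and -0.74 in venous-like cells, and Calcrl lies below 0 in 3 of the 4 classes.

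Nos3, the endothelial nitric oxide synthase, had its highest level in venous-like cells, at 86.6 (78.0 to 95.9) and 108 (98.8 to 118) CPM. Arterial-like cells followed at 66.3 and 75.3, then general capillary-like cells at 46.1 and 51.8, and aerocyte-like cells stood far below at 13.5 (11.9 to 15.2) and 16.0 (13.1 to 19.4). The 4 classes were apart from each other in both libraries, but with clusters in place of marker pairs the log2 of venous-like over arterial-like cells was -0.028, which ends that order. Pericyte-like, smooth muscle-like and fibroblast-like cells together held 5 and 3 UMIs. In all ECs the log2 ratio was 0.48 (0.39 to 0.58), from 39.2 and 54.9 CPM. With the class shares of the control it was 0.21, and venous-like cells, where the gene is highest, gave 6.86% of the control and 16.8% of the Dnmt1iECKO endothelial UMIs. Inside classes the ratio was 0.32 (0.12 to 0.51) in venous-like and 0.17 (0.03 to 0.31) in general capillary-like cells, and within counting error in arterial-like and aerocyte-like cells. The share of thinned venous-like cells with a UMI was 15.1% (10.7 to 20.4) and 12.9% (8.95 to 17.8). These shares overlap and do not show the difference in level. Unthinned, they were 57.7% and 58.4%, against 0.625% and 0.882% of T cells. When thinned cells were summed, the venous-like ratio was -0.40 and the general capillary-like one -0.04, so neither kept its sign. A Nos3 UMI was left in only 35 and 31 thinned venous-like and 221 and 76 thinned general capillary-like cells. No interval was made for these ratios, so they cannot decide whether the differences hold. The gene overlaps Atg9b on the opposite strand, and how the counting treated strand is not given in the sources used here.

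Gucy1a1 and Gucy1b1, the 2 subunits of the nitric oxide receptor, shared 1 pattern. They lie side by side on chromosome 3 of GRCm38, Gucy1b1 at chr3:82032006-82074689 and Gucy1a1 at chr3:82092427-82145789, both on the reverse strand, with 17737 bases and no other annotated gene between them. In pericyte-like cells Gucy1a1 stood at 4267 (4072 to 4469) and 4422 (4077 to 4789) CPM and Gucy1b1 at 2107 (1971 to 2251) and 2427 (2173 to 2702). Smooth muscle-like cells had 544 and 777 of Gucy1a1 (log2 ratio 0.51, 0.28 to 0.74) and 364 and 394 of Gucy1b1. Both subunits were detected together in 47 of 48 and 18 of 18 pericyte-like cells, in 26 of 33 and 42 of 45 smooth muscle-like cells, and in 27.1% and 27.4% of fibroblast-like cells. In T cells both were found in 1 of 160 and 0 of 680, the latter with an upper limit of 0.541% of cells. Pericyte-like cells of the libraries differed within counting error for Gucy1a1 (log2 ratio 0.05, -0.08 to 0.19) and by 0.20 (0.02 to 0.39) for Gucy1b1. Pde5a, the phosphodiesterase that breaks down cyclic GMP, was high in the same cells, at 3619 and 3676 CPM, and so was Prkg1, the kinase that cyclic GMP activates, at 4651 and 5518. The other alpha subunit, Gucy1a2, had 691 and 709 there and 13.9 and 14.7 in ECs.

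ECs as a whole held 88.0 and 104 CPM of Gucy1a1 and 50.7 and 58.8 of Gucy1b1, log2 ratios of 0.25 (0.18 to 0.31) and 0.21 (0.13 to 0.30). These UMIs sat in few cells. The 1% of ECs richest in the gene held 55.3% and 52.2% of the Gucy1a1 UMIs and 48.3% and 50.6% of the Gucy1b1 UMIs, against 5.84% and 5.62% for Calcrl. Cells with 2 or more UMIs of the 6 pericyte markers (Pdgfrb, Cspg4, Cox4i2, Higd1b, Notch3 and Lamc3) made up 9.05% and 8.76% of ECs. They carried 84.1% and 86.9% of the Gucy1a1, 74.0% and 81.2% of the Gucy1b1, 69.5% and 68.6% of the Ednra and 95.9% and 97.6% of the Agtr1a UMIs of all ECs. For the 6 genes read in ECs, these cells carried 10.4% to 17.6%. Their median depth was 15235 and 19029.5 UMIs, above the 9640 and 9616 of the others. Without them, Gucy1a1 stood at 16.5 and 16.3 CPM in ECs, a log2 ratio of -0.01 (-0.19 to 0.16), and Gucy1b1 at 15.5 and 13.2, a ratio of -0.23 (-0.43 to -0.04). The sign of the Gucy1b1 ratio thus depended on those cells. Aerocyte-like cells then had the highest Gucy1b1 level among the 4 classes, 21.9 and 20.3 CPM, and venous-like cells the least, 4.98 and 8.21. Arterial-like cells, then at 19.5 and 12.4 from 61 and 29 UMIs, had been highest before. Their earlier intervals overlapped those of the next class in both libraries, and the later levels have none, so no change of order is read. Edn1 (0.11), Ece1 (0.23), Ace (-0.03), Bdkrb2 (-0.38), Calcrl (-0.27) and Nos3 (0.56) kept the sign of their endothelial log2 ratio without those cells. Platelet markers moved with Gucy1a1, Gucy1b1, Ednra and Agtr1a as well. Cells with 2 or more UMIs of Ppbp and Pf4 were 10.9% and 13.2% of ECs and carried 20.4% and 34.5% of the Gucy1a1 UMIs. They carried 24.9% and 41.1% of the Gucy1b1, 30.3% and 42.6% of the Ednra and 17.4% and 44.6% of the Agtr1a UMIs. For the 6 genes read in ECs, the platelet-bearing cells carried 11.9% to 21.2%. Whether doublets, attached mural cells or platelets gave these UMIs was not tested.

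**Figure D3:**
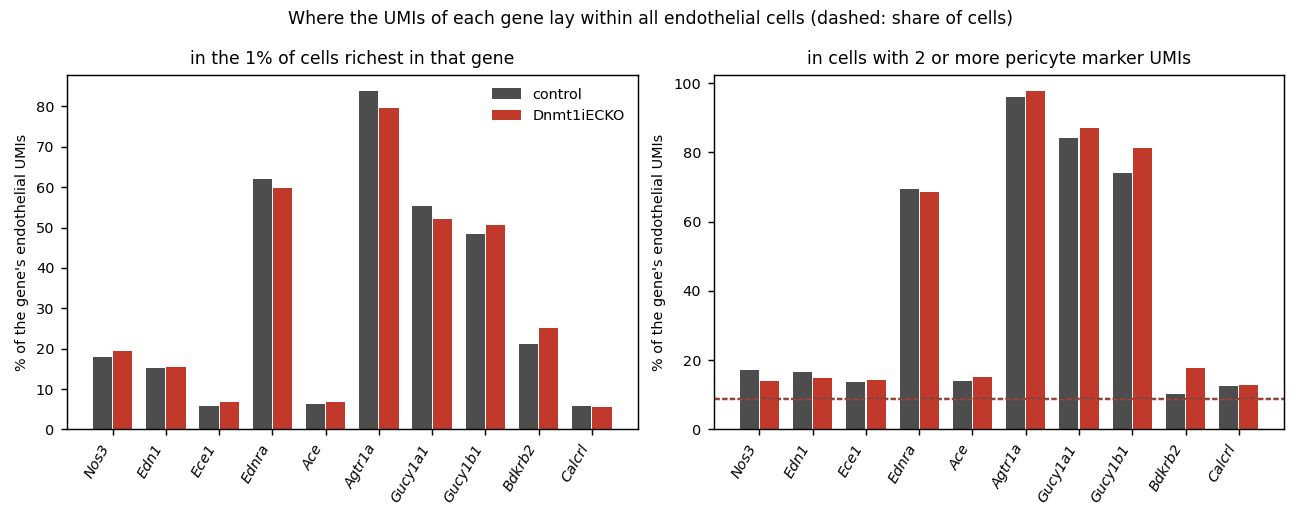
Share of each gene's endothelial UMIs (vertical axis, percent) that lay in the 1% of ECs richest in that gene (left) and in ECs with 2 or more UMIs of 6 pericyte markers (right), for control (grey) and Dnmt1iECKO (red). Dashed lines mark the share of ECs with those markers, 9.05% and 8.76%. Ednra, Agtr1a, Gucy1a1 and Gucy1b1 stand far above the other genes, Agtr1a at 95.9% and 97.6% on the right.

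Across the set, 1 of 10 genes (Ednra) was at least 1.5-fold higher in Dnmt1iECKO ECs and 0 were at least 1.5-fold lower, while 5.3% of the 13083 genes with 100 or more UMIs in both libraries together were higher and 2.46% lower by that fold. The median log2 ratio was 0.15 over the 10 genes and -0.01 over all genes. It rested on the genes of mural cells, being -0.02 without the cells with pericyte markers. Then Ednra was still the one gene higher (0.67) and Agtr1a, on 7 and 2 UMIs, was lower. Under some other settings the Ednra ratio over all ECs did not reach 1.5-fold. It was 0.027 with more doublets removed, 0.43 with Epcam, Cspg4 and Myh11 also excluding cells and 0.37 without platelet-bearing cells. As a mean over single cells it was 0.31, in thinned cells 0.55 and with control class shares 0.49. With no doublet removal it was 0.67, past that fold. In aerocyte-like cells 2 of 9 genes with 100 UMIs (Edn1 and Ednra) were higher and 0 lower, beside 1.84% and 3.54% of 10570 genes. Both ratios were below 0 in aerocyte-like cells without Kit or Bmp6, at -0.40 for Edn1 and -2.40 (52 and 3 UMIs) for Ednra, and Ednra was at -1.03 (57 and 9 UMIs) without the cells with pericyte markers. Without cells with 2 or more UMIs of Sftpc, aerocyte-like Ednra was instead at 1.34 (0.89 to 1.79, from 87 and 82 UMIs). Of 10 genes in general capillary-like cells, 0 were higher and 1 (Agtr1a, log2 ratio -0.61, from 119 and 31 UMIs) was lower, beside 3.29% and 2.47% of 11600. Without the cells with pericyte markers, only 3 and 0 of those Agtr1a UMIs were left. Venous-like cells had 0 of 9 higher and 1 (Edn1) lower, beside 2.88% and 2.67% of 8509. For arterial-like cells the counts were 1 of 9 (Ednra) higher and 0 lower, beside 3.73% and 2.59% of 7997. With 9 or 10 genes counted in each class, no more is read from these counts.

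A list of 50 further genes of the same pathways gave 32 with 100 or more UMIs in ECs. One was at least 1.5-fold higher, Enpep, the aminopeptidase that cleaves angiotensin II, at 3.44 and 6.48 CPM (log2 ratio 0.91, 0.62 to 1.20), and at 2.23 and 6.46 in general capillary-like cells. The 216 and 185 Enpep UMIs lay in 115 and 71 ECs, with 9 and 22 of them in the richest single cell. The other 2 past that fold were lower, while 5.3% of all 13083 genes with that minimum were higher and 2.46% lower. Npr3, the clearance receptor of natriuretic peptides, stood at 232 and 131 (-0.82, -0.87 to -0.77). Its log2 ratio was below 0 in each endothelial class, at -0.85 in general capillary-like, -0.93 in arterial-like, -0.47 in venous-like and -0.21 in aerocyte-like cells. Calca, which encodes the calcitonin gene-related peptide, had 142 and 1 UMIs (-6.01, -11.3 to -3.51), but 138 of the 142 came from a single cell. The median log2 ratio was -0.05 over the 32 genes and -0.01 over all genes.

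The 10 genes were also set against each other and against all genes over 18 profiles, 9 classes in each of the 2 libraries, as Pearson correlations of log2(CPM + 10). The profiles share libraries and are not independent, so the values are descriptions. Gucy1a1 and Gucy1b1 were closest, at 0.99. Among 11418 genes the nearest to Gucy1a1 were Postn (0.99), Gucy1b1 and Pde5a (0.99), and those to Gucy1b1 Postn (0.99), Gucy1a1 and Ndufa4l2 (0.98). Agtr1a was nearest to Vtn (0.99), Tmem200a (0.97) and Pcdh18 (0.97), and Ednra to Lama2 (0.99), Ism1 (0.99) and Adcy2 (0.99). Nos3 lay next to Mmrn2, Myrip and Mctp1 (each 0.99) and Calcrl next to Arhgef15, Sox18 and Lmo2 (each 0.99). For Edn1 the nearest were Tmem44 (0.97), Fes (0.96) and Acer2 (0.96), for Ece1 Rab11a (0.96), Spns2 (0.96) and Xiap (0.95), and for Ace Ddah1 (0.98), Rab1a (0.98) and Tspan18 (0.97). Bdkrb2 was nearest to Zfp697 (0.95), Ces2g (0.95) and Fam171a2 (0.94). Within the set, Ace and Calcrl (0.94), Nos3 and Edn1 (0.94) and Ece1 and Calcrl (0.93) were alike, and Nos3 and Gucy1a1 were not (-0.09).

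**Figure D4:**
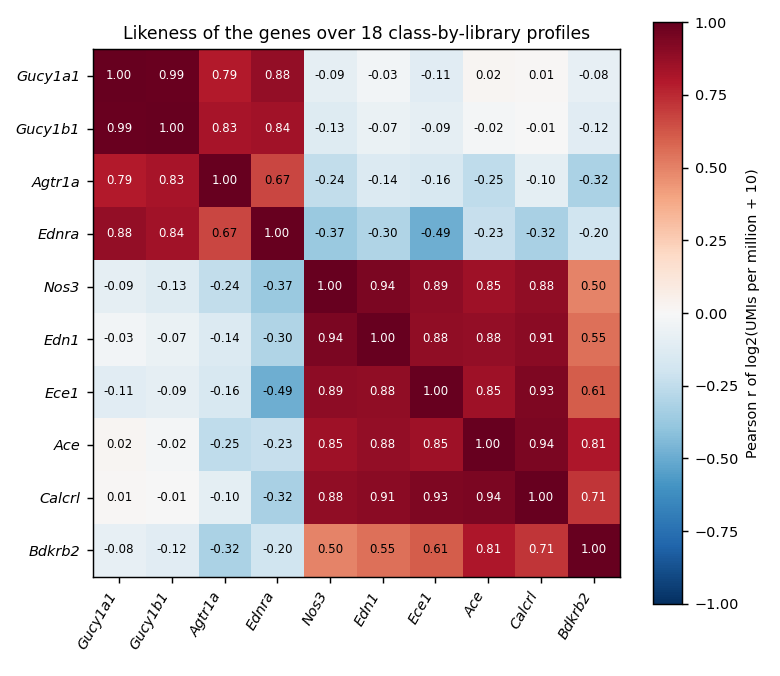
Pearson correlation between the 10 genes over 18 class-by-library profiles of log2(CPM + 10), from -1 (blue) to 1 (red). The 4 genes of mural cells form one block, with Gucy1a1 and Gucy1b1 at 0.99, and the 6 endothelial genes another, with Ace and Calcrl at 0.94.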

How the data were processed

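Droplet single-cell RNA-seq of 1 control and 1 Dnmt1iECKO library was analysed. The deposited values are raw UMI counts per gene and cell, which per the labels the authors made with Cell Ranger 9.0.1 on mm10, with no normalization. From these counts, cells with under 500 genes (in place of the study's own minimum) or over 10% mitochondrial counts were removed, as were the highest Scrublet scores at 0.4% per 1000 cells (scanpy 1.11.5) in place of DoubletFinder. A cell took the lineage (endothelial, pericyte, smooth muscle, fibroblast, epithelial, mesothelial or tumor) with most of 6 markers detected, at least 3, and ECs of another lineage were left out. Cells with 2 or more UMIs of Hmga2 were called tumor. An EC class needed 2 or more UMIs of its pair. Counts were summed over cells and given as CPM, so fewer RNA molecules of a gene and more of all others cannot be told apart. Shares have exact Clopper-Pearson 95% intervals, and a count of 0 is given with a limit of 3 UMIs. Genes with 100 or more UMIs in both libraries together were counted past 1.5-fold and entered the alternatives. Some ratios from fewer UMIs are also given. The ratio was run on simulated data for all ECs, with 200 of 13083 genes changed. All of 100 at 2-fold and all of 100 at 4-fold were recovered, and 95.7% of intervals held the true value. The simulated counts were Poisson draws from the summed profile, without spread between cells, mice or libraries. This run therefore checks the calculation only, and cannot show how the intervals fare where UMIs sit in few cells. No measured value entered the choice of the 10 genes, but the genes, lists and cuts were chosen with earlier results of these data known. The choice was therefore not blind to those results. Named are the 10 genes, set partners, pathway genes past 1.5-fold and the 3 most alike genes over genes with 500 or more UMIs. Ccl21a was left out of the lymphatic markers, since 2 rows carry that symbol. Python 3.11.15, numpy 2.4.6, scipy 1.17.1, pandas 2.3.3 and matplotlib 3.10.9 were used.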

Additional observations from a re-analysis of the deposited data

Results flagged for a closer look

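Among ratios of Dnmt1iECKO over control from 100 or more UMIs, 3 of the 10 genes had opposite signs in different classes, each with an interval that left out 0. Agtr1a had them too, at -0.61 in general capillary-like cells and 1.02 in pericyte-like cells, the latter from 50 and 33 UMIs. Of the 119 and 31 Agtr1a UMIs of general capillary-like cells, only 3 and 0 were left without cells with 2 or more pericyte marker UMIs. The differences between classes were not tested, as there was 1 library per genotype. Edn1 had a log2 ratio of 0.77 in aerocyte-like and -0.74 in venous-like cells, and -0.40 (-1.44 to 0.52) in aerocyte-like cells without Kit or Bmp6. Ace had 0.15 in aerocyte-like and -0.27 (46.1 and 38.1 CPM) in fibroblast-like cells. Calcrl had 0.068 in aerocyte-like and -1.31 in pericyte-like cells, the latter from 91 and 12 UMIs in classes of 48 and 18 cells, and 0.33 (-1.23 to 1.76) in pericyte-like cells without a UMI of Cdh5 or Pecam1.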

How the results depend on the processing

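No paired analysis was possible because each genotype has 1 library. Of 690 log2 ratios recomputed in the 4 endothelial classes, 92 had another sign than the reported value, and 33 of these were for ratios whose interval left out 0. Of 140 over all ECs, 17 had another sign, 11 of them for such ratios, and of 180 comparisons of the highest class with the next, 1 had. Where not given below, the cause was not tested. The class differences of Calcrl in general capillary-like cells (-0.40 to -0.20) and of Edn1 in venous-like cells (-0.86 to -0.28) kept their sign throughout, and that of Edn1 in aerocyte-like cells (0.52 to 1.02) in all but 1 setting. The low counts of Ednra and Agtr1a in ECs, the few mural cells and the lack of a second library limit what can be read.

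With no doublet removal, Gucy1a1 in venous-like cells was at -0.043. With doublets at 0.8% per 1000 cells, 0 of the 10 genes were 1.5-fold higher in ECs, the median of the members was 0.052, and Gucy1a1 was at -0.15 in aerocyte-like and -0.13 in venous-like cells and Ednra at -0.014 in general capillary-like and -0.20 in arterial-like cells. With Epcam, Cspg4 and Myh11 also excluding cells, 0 of the 10 were higher, the median of the members was -0.068, 4 pathway genes were lower, Gucy1a1 was at -0.081 and Gucy1b1 at -0.30 in ECs, Gucy1a1 at -0.011 and Gucy1b1 at -0.27 in general capillary-like cells, and Gucy1b1 at -0.29 in arterial-like cells. With both Cdh5 and Pecam1 required, 1 pathway gene was lower. With other lineages kept, the median of the members was -0.092, 3 pathway genes were higher, Edn1 was at -0.16 and Gucy1b1 at -0.026 in ECs, and Calcrl at 0.33 in pericyte-like cells. Without platelet-bearing cells, 0 of the 10 were higher, the median of the members was -0.050, 2 pathway genes were higher, Edn1 was at -0.025 and Gucy1b1 at -0.090 in ECs, Ednra at -0.35 and Gucy1a1 at -1.32 in aerocyte-like cells, Ednra at -0.029 in general capillary-like and Gucy1b1 at -0.32 in arterial-like cells.

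With the mean over single cells, 0 of the 10 were higher, the median of the 10 members was 0.0055, and Gucy1b1 was at -0.024 in ECs and -0.0014 in pericyte-like cells and Gucy1a1 at -0.039 in aerocyte-like cells. With thinned cells, 0 of the 10 were higher, the median of the members was 0.026, 2 pathway genes were higher and 4 lower, Nos3 was at -0.045 in general capillary-like and -0.40 in venous-like cells, Gucy1a1 at -0.049 in venous-like and Gucy1b1 at -0.53 in arterial-like cells. With control class shares, Edn1 was at -0.0028 and Ace at 0.028 in ECs. At a fold of 2, 0 of the 10 and 0 pathway genes were higher and 1 pathway gene was lower. With 1 UMI of a pair enough, arterial-like cells gave Edn1 -0.087 and Gucy1b1 -0.011. With clusters in place of pairs, Ednra was at -1.67, Agtr1a at 0.068 and Gucy1b1 at -0.60 in general capillary-like cells, Ece1 at -0.029 and Gucy1b1 at -4.61 in arterial-like cells, and the log2 of Nos3 in venous-like over arterial-like cells was -0.028. With Myh11 splitting mural cells, Gucy1a1 was at -0.37 in smooth muscle-like cells.

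The following were chosen after seeing the data. Without Kit or Bmp6, aerocyte-like cells gave Edn1 -0.40, Ednra -2.40 and Gucy1a1 -1.33. Without fibroblast gene UMIs, arterial-like cells gave Ednra -0.71 and Gucy1b1 -0.18. Without Cdh5 and Pecam1, pericyte-like cells gave Calcrl 0.33. Without Sftpc, Gucy1b1 was at -0.0066 and Ednra at 1.80 in arterial-like cells, and Ednra was at 1.34 in aerocyte-like cells. Without ECs with 2 or more pericyte marker UMIs, 1 of the 10 was lower, the median of the members was -0.025, 2 pathway genes were higher, Gucy1a1 was at -0.014 and Gucy1b1 at -0.23 in ECs, Ednra at -1.03 in aerocyte-like cells, and Gucy1b1 at -0.15 in general capillary-like and -0.66 in arterial-like cells.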

Other observations

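Beyond the classes of the comparison, Edn1 was read in epithelial-like cells at 6.99 and 26.9 CPM, from 33 and 74 UMIs, and in ECs of no class at 265 (control) and 168 (Dnmt1iECKO). The neutral endopeptidase gene Mme, whose enzyme degrades endothelin and natriuretic peptides, was highest in epithelial-like cells at 294 and 211 CPM, with 109 and 88.4 in fibroblast-like cells and 10.0 and 14.6 in ECs. Adm was highest in fibroblast-like cells at 53.7 and 70.6. Agt, the angiotensin precursor, was at most at 14.3 CPM in the classes read. In ECs, the log2 of Gucy1a1 over Gucy1b1 UMIs was 0.80 (0.73 to 0.86) and 0.83 (0.74 to 0.92), in pericyte-like cells 1.02 and 0.87, and in fibroblast-like cells 1.76 and 1.69.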
